A study of Rattus norvegicus with 62 samples.

Results

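The response of sensory ganglia to nerve injury was compared between an early and a late time in female rats. The ganglia were the fourth lumbar dorsal root ganglia (L4) of rats whose sciatic nerve had been tied loosely (chronic constriction injury), which produces pain hypersensitivity. In each animal the injured (ipsilateral) side was set against the uninjured opposite (contralateral) side. The quantity studied is the shift, the side difference at 5 weeks minus the side difference at 1 week, each taken between the 2 sides of the same animal. It draws on 26 of the 62 libraries of the series: 7 female animals at 1 week and 6 other female animals at 5 weeks, each with both sides. Every group carried the injury, since the control is the opposite ganglion of an injured rat, and the labels used here name no strain, age, sham operation or untouched animal. The remaining libraries are from males at 24 h, 1 week and 5 weeks. Poly-A RNA of whole ganglia was sequenced and counted per gene, and values are given as CPM (the usual per-library scaling of counts by their total). Unless stated otherwise, CPM were made comparable between libraries by TMM scaling. The labels give 1 animal code to both sides of each female pair, so the pairs are animals, and the p-values measure the spread between them.

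A dorsal root ganglion contains the somata of sensory neurons, each wrapped by satellite glia, with myelinating Schwann cells, blood vessels, fibroblasts and resident macrophages between them. When their axons are damaged, the neurons switch on transcription factors, growth-associated proteins and peptides such as galanin, and lower many ion channels and receptors of the uninjured state. In this model behavioural hypersensitivity fades over weeks while axons regrow, and a change in the side difference with time can come from the injured side, from the opposite side or from both. In whole ganglia, fewer cells of a type and less RNA per cell cannot be told apart.

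The libraries held 18.4 to 25.5 M counts. The injury labels were matched by the known injury genes. The transcription factor Atf3 had 5.64 to 10.4 CPM in the 13 opposite ganglia and 146 to 348 CPM in the 13 injured ones, and Npy and Sprr1a, likewise switched on by axon damage, also separated the sides in all 13 animals. A panel of 7 sensory neuron markers was present in every library, with group medians of summed level between 15306 and 16399 CPM without TMM scaling.

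Several properties of the libraries differed by week and side and have to be read beside every result below. The first 2 described here crossed, and the third was low in 1 group. The share of counts in long noncoding RNAs (lncRNA) was high in the injured libraries of 1 week (0.644 to 0.668%) and the opposite libraries of 5 weeks (0.618 to 0.648%). It was lower in the opposite libraries of 1 week (0.550 to 0.621%) and the injured libraries of 5 weeks (0.558 to 0.619%). The exon length slope, which says how far a library's log2 CPM rises with each doubling of a gene's exon length relative to the other libraries, had group medians of 0.0112 and -0.0262 on the opposite and injured side at 1 week, and of -0.00069 and 0.0106 at 5 weeks. Nuclear ribosomal RNA, a remainder of poly-A selection, took 0.664 to 1.39% of counts in the injured libraries of 1 week and 1.57 to 2.71% in the other 3 groups, with no overlap. In an exact two-sided permutation test over the 7 and 6 animals, the shift in these 3 properties reached the smallest p the design allows (0.00117; 0.00233 after Benjamini-Hochberg adjustment over 6 properties, of which the lncRNA share was added after the data had been seen). For the shares of hemoglobin, mitochondrial and fractional counts the exact permutation p was 0.864, 0.632 and 0.506. The labels name 2 sequencers with different read lengths and do not say which library was read on which. A technical batch that followed week and side in this crossed way would have the same contrast as the shift, so the design cannot tell it apart from a change of the injury response.

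**Figure D1:**
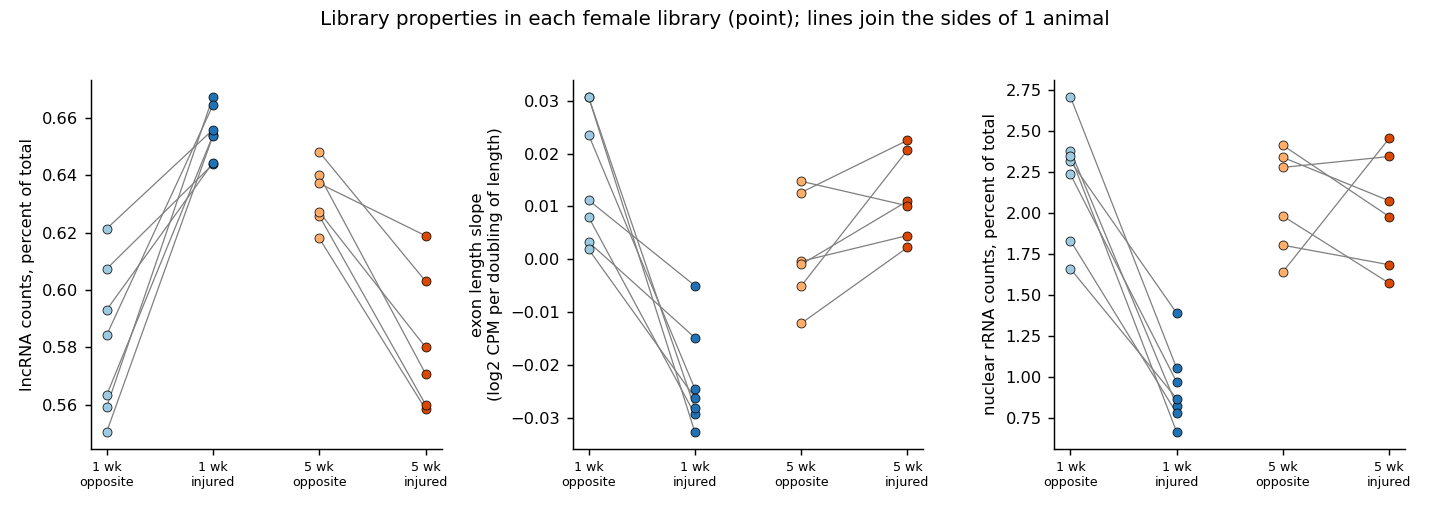
Share of lncRNA counts (percent of the total), exon length slope (log2 CPM per doubling of exon length) and share of nuclear ribosomal RNA counts (percent of the total) in each of the 26 female libraries, by week and side. Points are libraries and lines join the 2 sides of an animal. The lncRNA share rises from the opposite to the injured side in the 7 animals at 1 week and falls in the 6 animals at 5 weeks.

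Of 17866 genes tested, 3446 (19.3%) had a shift with an adjusted p under 0.05 (edgeR's quasi-likelihood test on paired sides, Benjamini-Hochberg). The injured ganglion gained on the opposite one between the weeks for 2017 of them (11.3%) and lost ground for 1429 (8%), and 212 and 97 of these, respectively, moved by more than 2-fold. The side differences themselves were called for 9147 genes (51.2%) at 1 week and 8572 (48%) at 5 weeks. These became 853 and 8386 with the ribosomal RNA share of each library as a covariate, and 3206 and 5377 with the lncRNA share. Both shares differ between the groups compared, so each covariate also takes up part of the contrast. The ratios of the 2 sides did not overlap between the animals of the 2 weeks for 1449 genes (8.11%), 878 higher (4.91%) and 571 lower (3.2%) at 5 weeks. The split by direction depended on scaling: upper-quartile scaling, which moved the median shift of all genes by -0.04 on the log2 scale, gave 1636 higher and 2014 lower. Of the 1429 genes with a lower shift, 361 (25.3%) were above the opposite side at both weeks and 532 (37.2%) at 1 week alone by the adjusted p of each week. Of the 2017 genes with a higher shift, 425 (21.1%) differed between the sides at both weeks in opposite directions.

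The shift equals the week difference on the injured side minus the week difference on the opposite side, so each gene can be sorted by the side on which the weeks themselves differed. Between weeks, 3246 genes (18.2%) differed on the injured side, where 1737 (9.72%) were higher at 5 weeks and 1509 (8.45%) lower. On the opposite side 2145 (12%) differed, 705 (3.95%) higher and 1440 (8.06%) lower at 5 weeks. With the ribosomal RNA covariate the order of the sides turned, with 238 genes on the injured and 1946 on the opposite side. Among the 2017 genes with a higher shift, the week difference was called on both sides with opposite signs for 360 (17.8%), on the injured side alone for 694 (34.4%) and on the opposite side alone for 522 (25.9%). Among the 1429 with a lower shift the numbers were 119 (8.33%), 667 (46.7%) and 258 (18.1%). Over all genes tested 479 (2.68%) had called week differences of opposite sign on both sides, and each of them also had a called shift. The weeks differed on neither side by these tests for 433 (21.5%) of the higher and 384 (26.9%) of the lower genes. The first 3 patterns, called crossed, injured-side and opposite-side here, are described in turn.

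**Figure D2:**
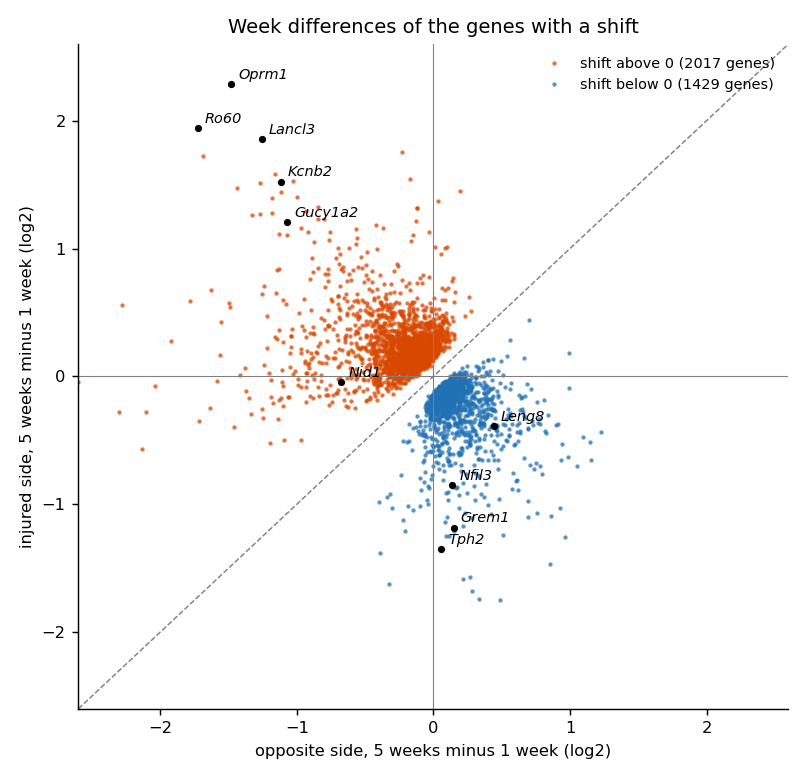
Week difference (5 weeks minus 1 week, log2) on the opposite side (horizontal axis) and on the injured side (vertical axis) for the 3446 genes with a called shift, 3 of which lie outside the drawn range. Orange points have a shift above 0 and blue points a shift below 0. Oprm1, Ro60, Lancl3, Kcnb2 and Gucy1a2 lie far to the upper left, Tph2 and Grem1 moved along the vertical axis, and Nid1 along the horizontal axis.

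The 12 largest called increases that met the naming rule all had the crossed pattern. Oprm1, the mu opioid receptor through which morphine and endorphins act (chromosome 1, 43160057 to 43413409, build mRatBN7.2), had 6.85, 8.98 and 10.5 CPM (lowest, median and highest) on the opposite side and 1.21, 1.91 and 2.35 on the injured side at 1 week. At 5 weeks it had 2.21, 3.00 and 4.38 CPM on the opposite side and 5.56, 9.21 and 11.4 on the injured side. The sides therefore did not overlap at either week, but in opposite orders: the injured ganglion was the low one in 7 of 7 animals at 1 week and the high one in 6 of 6 at 5 weeks. The shift of Oprm1 was 3.77 ± 0.19 on the log2 scale (SE; adjusted p = 8.35e-11), built from a side difference of -2.31 at 1 week and 1.46 at 5 weeks.

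Ro60, a protein that binds misfolded small RNAs (chromosome 13, 55499514 to 55520504), had medians of 20 and 6.03 CPM on the opposite and injured side at 1 week and of 5.79 and 24.6 CPM at 5 weeks, a shift of 3.70 ± 0.20 (adjusted p = 1.35e-08). Gucy1a2, a subunit of the soluble guanylate cyclase that answers nitric oxide (chromosome 8, 500212 to 900201), had 39.3, 40.4 and 49.1 CPM on the opposite and 13.3, 15.4 and 19.3 on the injured side at 1 week. At 5 weeks it had 18.2, 20.5 and 21.5 CPM on the opposite and 32.9, 37.5 and 39.8 on the injured side. No opposite library overlapped an injured one at either week, and the shift of 2.28 ± 0.09 had the smallest p of all genes (adjusted p = 1.21e-11). Kcnb2, a delayed rectifier potassium channel, shifted by 2.65 ± 0.19 (adjusted p = 7.22e-07), with medians of 30.8 and 7.90 CPM on the opposite and injured side at 1 week and 14.6 and 24.9 at 5 weeks. Zbtb41, Lancl3, Zfp709l1, Plcxd3, Zbed6, Slc5a3, Arfgef3, Chml, Phip, Pik3c2a, Dmxl1, Hecw1 and Unc80 followed the same order, with shifts of 1.34 to 3.44. Among them Unc80 belongs to the sodium leak channel complex, Pik3c2a is a lipid kinase of endocytosis, Slc5a3 takes up myo-inositol, and Zbtb41, Zfp709l1 and Zbed6 are zinc finger proteins.

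Crossed genes with a lower shift included Rtbdn, whose shift was -1.16 ± 0.16 (adjusted p = 4.59e-05), with medians of 4.95 and 6.21 CPM on the opposite and injured side at 1 week and of 7.71 and 4.11 CPM at 5 weeks. Leng8 (chromosome 1, 70040785 to 70052662) had medians of 207 and 296 CPM on the opposite and injured side at 1 week and of 286 and 222 at 5 weeks, a shift of -0.84 ± 0.06 (adjusted p = 2.06e-08). Snrnp70, the U1 small nuclear ribonucleoprotein that marks the start of introns, fell by 0.63 ± 0.06 (adjusted p = 4.52e-07), with the injured side above the opposite in 7 of 7 animals at 1 week and in 1 of 6 at 5 weeks. Pcgf1, a Polycomb repressive complex subunit, and Pabpn1, the nuclear poly(A)-binding protein, had shifts of -0.82 and -0.49.

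The crossed libraries stood apart unevenly. Here CPM without TMM scaling were compared for the 17866 genes tested. Of these, 30 were lower in all 13 libraries of the pair "1 week injured and 5 weeks opposite" than in each of the other 25 libraries of the same table, and 5 were higher. Those 25 include the males of 24 h. For the pair "1 week opposite and 5 weeks injured" the counts were 0 and 2. The 30 genes include Ro60, Gucy1a2, Phip, Pik3c2a, Dmxl1, Hecw1, Unc80, Zbtb41, Zbed6 and Zfp709l1. Ro60 ran from 4.26 to 9.82 CPM without scaling in those 13 libraries, against 15.0 to 26.9 CPM in the other 13 female libraries and 15.4 to 21.3 CPM in the 12 male libraries of 24 h. In the males of 1 and 5 weeks, which stand in a separately made table, Ro60 lay between 10.5 and 16.2 CPM, and the ranges of the sides overlapped at both weeks. Of the 38 genes looked at for this, 7 overlap another gene on the same strand (Chml with Opn3, Slc5a3 with Mrps6, Zbed6 with Zc3h11a, and Oprm1, Gucy1a2, Kcnh7 and Tph2 with loci without a gene name), 8 overlap one on the other strand only (among them Ro60 with Glrx2 and Leng8 with Leng9) and 23 overlap none. Whether reads were counted by strand is not given in the sources used here.

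**Figure D3:**
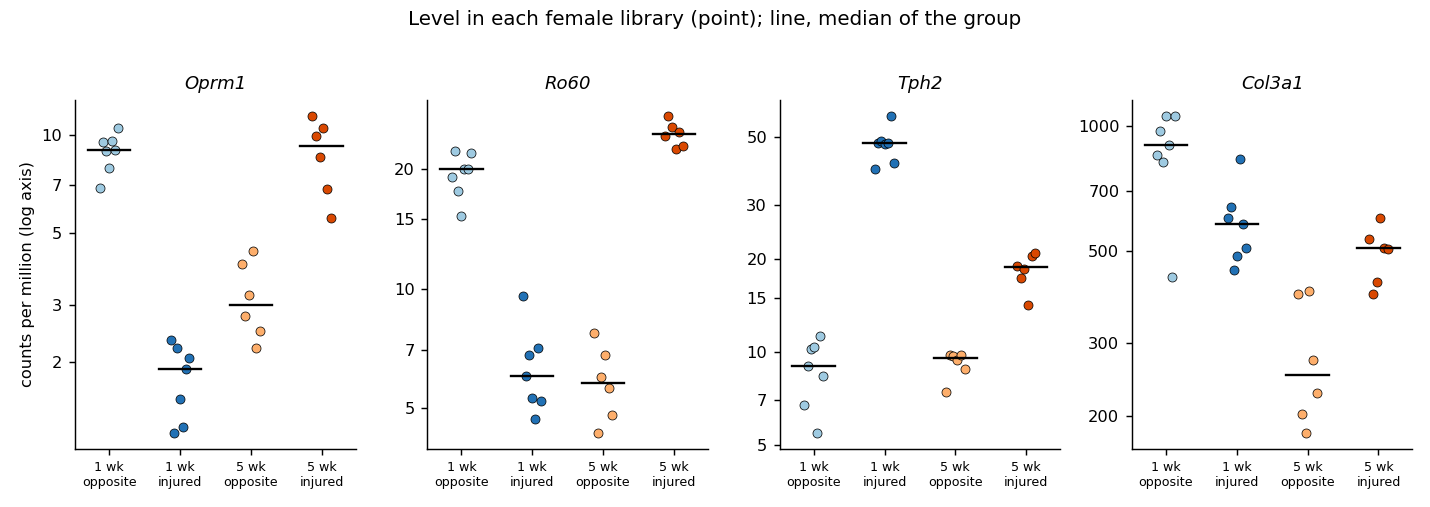
CPM of Oprm1, Ro60, Tph2 and Col3a1 (log axis) in each of the 26 female libraries, by week and side. Points are libraries and lines are group medians. Oprm1 and Ro60 are high in the opposite libraries of 1 week and the injured libraries of 5 weeks, Tph2 is high in the injured libraries and highest at 1 week, and Col3a1 is lowest in the opposite libraries of 5 weeks.

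With the ribosomal RNA share of each library as a covariate, 117 genes kept a called shift (95 higher, 22 lower). With the lncRNA share as a covariate, an alternative chosen after seeing the data, the count was 248 (201 higher, 47 lower). Because both covariates take up part of the contrast, a call lost beside one of them does not show that the shift is absent. Oprm1, Ro60, Gucy1a2, Kcnb2, Phip, Pik3c2a, Dmxl1, Hecw1, Unc80, Zbtb41, Lancl3, Zfp709l1 and Plcxd3 were called under both, with adjusted p of at most 0.048. Leng8 was called under the former (adjusted p = 0.014) and not under the latter (adjusted p = 0.086).

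Exon length went with the direction of the shift. The median exon length was 6284 bases for genes with a higher shift, 3244 for those with a lower one and 3054 for genes without a call, and it was 8435 for the 360 genes of the crossed pattern with a higher shift. In the fifth of genes with the longest exons (6386 bases and more) 27.8% had a higher and 6.97% a lower shift. In the fifth with the shortest (1638 bases and fewer) the shares were 3.38% and 6.46%. LncRNA genes made up 10.8% of genes with a lower shift, 1.39% of those with a higher one and 8.09% of those not called. With a length trend removed from every library, 3048 genes had a shift, 1553 higher and 1495 lower.

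The second pattern held genes whose weeks differed on the injured side alone, and its largest decreases were in genes raised by the injury. Tph2, the rate-limiting enzyme of neuronal serotonin synthesis (chromosome 7, 50685694 to 50789424), had 39.4, 47.6 and 58.5 CPM in the injured ganglia at 1 week and 14.2, 18.8 and 21 at 5 weeks. On the opposite side it had 5.46, 9.01 and 11.3 CPM at 1 week and 7.40, 9.56 and 9.79 at 5 weeks. The injured side stayed above the opposite side in all 13 animals, and the log2 side difference went from 2.13 to 3.01 at 1 week down to 0.57 to 1.31 at 5 weeks, without overlap. The shift was -1.43 ± 0.15 (adjusted p = 5.53e-06).

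Other large decreases of this kind were in Spata18 (-1.33), which acts in mitochondrial quality control, the bone morphogenetic protein antagonist Grem1 (-1.32), the cross-linking enzyme Tgm1 (-1.30), the epithelial cytokine Tslp (-1.27) and the arginine-degrading enzyme Arg1 (-1.24). Arg1, a gene tied to axon regrowth, had 14.5, 18.9 and 27.1 CPM on the injured side at 1 week and 6.03, 9.45 and 11.3 at 5 weeks, against 1.03 to 2.38 CPM in all 13 opposite ganglia. Cdhr5, a cadherin-related protein, fell by 1.27. Ttll9, of the tubulin tyrosine ligase-like family, fell by 1.07 from a side difference of 0.11 at 1 week to -0.96 at 5 weeks. Dhrs2, a dehydrogenase, fell by 1.07 from 1.13 to 0.07, with its weeks called on neither side, and lost its call without the block (adjusted p = 0.10). Nfil3, a transcription factor induced by axon damage, shifted by -1.0 ± 0.16 (adjusted p = 1.87e-04), from medians of 13.0 CPM on the injured side at 1 week to 6.07 at 5 weeks. The injured side of Grem1 was the higher one in 7 of 7 animals at 1 week and in 1 of 6 at 5 weeks. Slc7a6os fell by 1.03 ± 0.09 (adjusted p = 2.3e-07) and was called beside the lncRNA covariate (adjusted p = 0.021) but not beside the ribosomal RNA covariate (adjusted p = 0.067). Grem1 was called with the ribosomal RNA share alone (adjusted p = 0.013). Itga7, the integrin alpha 7 chain that binds laminin, fell by 0.53 ± 0.05 and was called with either covariate (adjusted p = 0.045 and 0.0071), while Tph2, Spata18, Tgm1, Tslp, Arg1 and Nfil3 were called with neither.

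In a list of 43 nerve injury genes, 13 fell (30.2%, against 8% of all genes tested), 3 rose, and the median shift was -0.31, against 0.00 over all genes. At 1 week 39 of the 43 were called higher on the injured side and at 5 weeks 37, against 24.9% and 25.1% of all genes. The median side difference over the list ran from 2.33 to 3.08 in the 7 animals of 1 week and from 1.88 to 2.74 in the 6 of 5 weeks, which overlap. Of the 13 that fell, 12 had a called week difference on the injured side alone, and the heat shock protein gene Hspb1 had one on the opposite side alone. Galanin (Gal), a neuropeptide of damaged sensory neurons, had 103, 202 and 277 CPM on the injured side at 1 week and 64.1, 85.0 and 179 at 5 weeks, and 4.86 to 9.10 CPM on the opposite side. Its shift of -0.93 ± 0.25 (adjusted p = 0.021) lost its call without 5 week animal 2, without 5 week animal 3 (adjusted p = 0.051 each) and without the animal as a block (adjusted p = 0.12). Adcyap1, which encodes the peptide PACAP, fell by 0.58, the growth transcription factor Sox11 by 0.72 and neurotensin (Nts) by 1.47. The sign of Sox11 turned under the lncRNA covariate (0.43, not called). Lifr, a receptor subunit of the interleukin-6 cytokine family, rose by 0.30, and the calcium channel subunit Cacna2d1, the target of gabapentin, by 0.50 from a side difference of 1.92 at 1 week to 2.43 at 5 weeks.

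Several classic injury genes showed no called shift. Atf3 had a shift of -0.70 ± 0.23 (adjusted p = 0.052), Gap43 of -0.31 ± 0.12 (adjusted p = 0.085), Npy of 1.13 ± 0.65 (adjusted p = 0.27) and Vip of -0.28 ± 0.77 (adjusted p = 0.86). Atf3 passed the threshold without 5 week animal 6 (adjusted p = 0.007), without 1 week animal 5 (adjusted p = 0.043) and without the animal as a block (adjusted p = 0.037), and Gap43 without 5 week animal 6 (adjusted p = 0.026). Under the ribosomal RNA covariate 1 gene of the list was called lower and none higher, and under the lncRNA covariate 1 was called higher and none lower, with medians of -0.43 and -0.22.

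**Figure D4:**
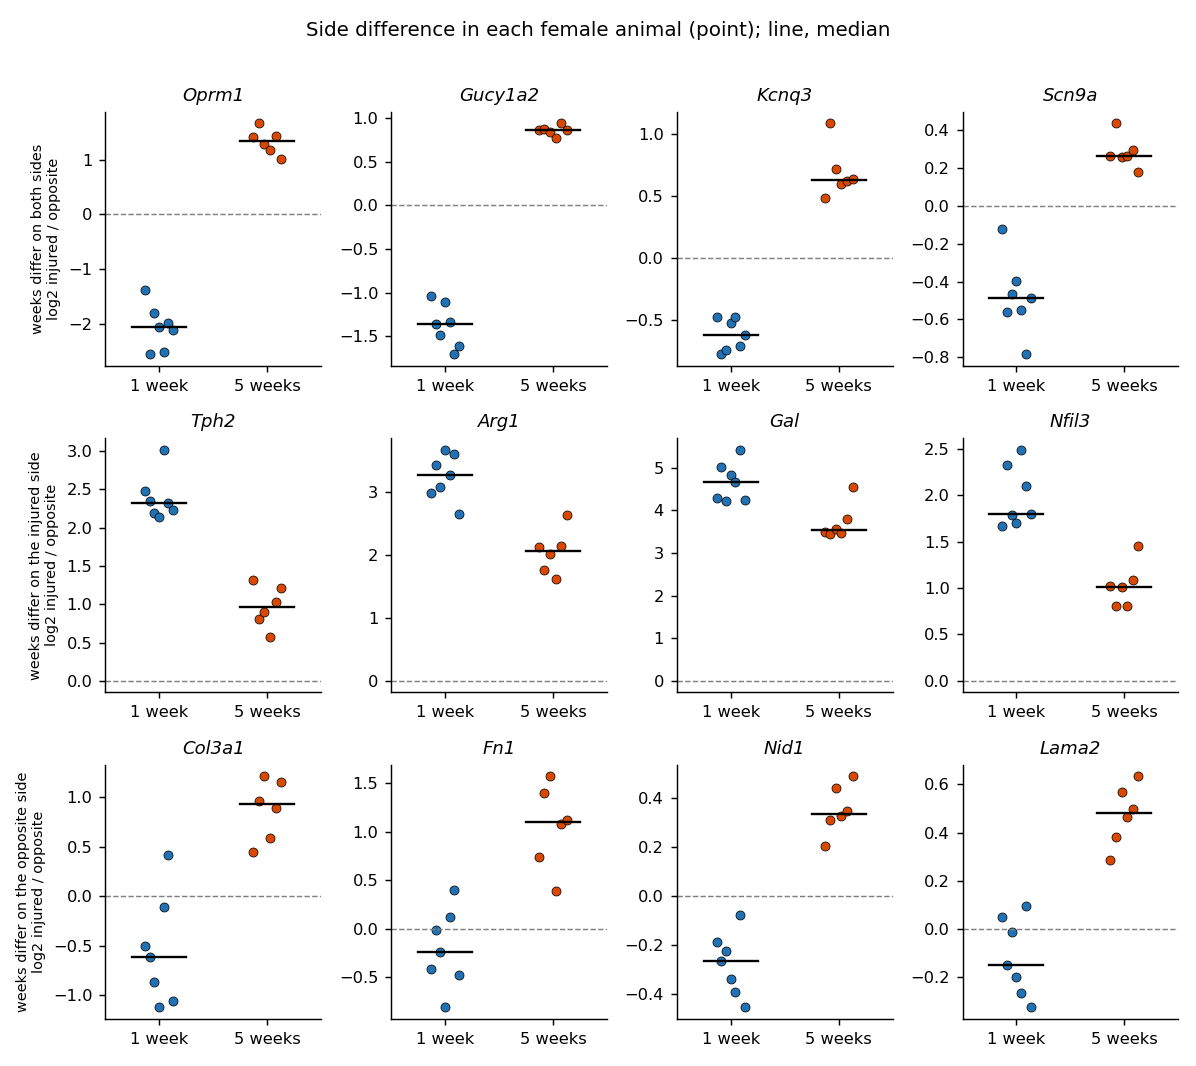
Log2 ratio of the injured to the opposite side in each animal at 1 week (7 points) and 5 weeks (6 points) for 4 genes of each pattern, with the median as a line and no difference as a dashed line. In the top row the ratio changes sign between the weeks, in the middle row it stays above 0 and declines, and in the bottom row it moves from mostly below 0 to above 0.

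The third pattern was led by genes of connective tissue, whose level changed between weeks on the opposite side. Col3a1, which encodes fibrillar collagen III (chromosome 9, 47374611 to 47410547), had 434, 902 and 1059.6 CPM in the opposite ganglia at 1 week and 183, 251 and 401 at 5 weeks. On the injured side it had 450, 580 and 834 CPM at 1 week and 394, 508 and 600 at 5 weeks. The 2 weeks did not overlap on the opposite side and overlapped widely on the injured side, so that the injured ganglion was below the opposite one in 6 of 7 animals at 1 week and above it in 6 of 6 at 5 weeks. The shift was 1.43 ± 0.25 (adjusted p = 0.0022).

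In the list of 43 extracellular matrix and fibroblast genes, 35 rose (81.4%, against 11.3% of all genes) and none fell, with a median shift of 0.71. The median week difference of the list was -0.04 on the injured side and -0.71 on the opposite side, and 29 of the 35 had a called week difference on the opposite side alone. Taken per animal, the list's median side difference ran from -0.43 to 0.39 at 1 week and from 0.37 to 0.84 at 5 weeks, and 1 of the 7 animals of 1 week stood above the lowest of 5 weeks. Nid1, a nidogen of basement membranes, had the smallest p in the list and rose by 0.63 ± 0.06 (adjusted p = 4.52e-07), followed by the fibril-associated collagen Col14a1 (0.68) and the laminin chains Lama2 (0.59) and Lamc1 (0.56). Larger shifts with larger errors were seen in fibronectin (Fn1, medians of 178 and 132 CPM on the opposite and injured side at 1 week and 64.5 and 135 at 5 weeks), Col1a1 (0.91 ± 0.21), the adhesion glycoprotein Thbs2 (1.37 ± 0.28) and elastin (Eln, 1.98 ± 0.52).

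Vessel markers also had higher shifts, with a smaller median. In a list of 29 endothelial and pericyte markers 18 rose (62.1%, against 11.3% of all genes) and none fell, with a median of 0.39. The median week difference of this list was 0.16 on the injured and -0.25 on the opposite side, and of the 18 markers 5 had a called week difference on the opposite side alone, 2 on the injured side alone, 1 on both and 10 on neither. Without the animal as a block 6 rose. The pericyte genes Rgs5 (0.69 ± 0.10) and Cspg4 (0.60 ± 0.09) and the vascular growth factor receptor Kdr (0.53 ± 0.09) were among them, of which Kdr lost its call without the block (adjusted p = 0.058). Pecam1, an endothelial adhesion molecule, had medians of 19.5 and 17.9 CPM on the opposite and injured side at 1 week and of 17.1 and 19.5 at 5 weeks, a shift of 0.40 ± 0.10 (adjusted p = 0.0058; 0.056 without the block).

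Markers of fibroblasts, fat and muscle are given beside these genes, as sums of CPM without TMM scaling. The 3 fibroblast markers of the cell type panel (Pdgfra, Dcn and Lum) summed to medians of 448 and 394 CPM on the opposite and injured side at 1 week and of 269.9 and 414 CPM at 5 weeks. The 3 adipocyte markers summed to 0.288 to 9.78 CPM in the opposite ganglia of 1 week and to 0.245 to 0.600 CPM in those of 5 weeks, and on the injured side to 1.94 to 6.93 CPM at 1 week and 0.853 to 2.31 CPM at 5 weeks. The 4 skeletal muscle markers summed to 5.98 to 39.0 CPM in the opposite ganglia of 1 week, against 5.33 to 9.46 CPM in the other groups, and the highest value belonged to animal 2. The medians of the muscle sum on the opposite side were 6.28 CPM at 1 week and 7.05 CPM at 5 weeks. The part of such tissue in the shift was not tested. Without that animal 30 of the 43 matrix genes and 16 of the 29 vessel markers were called higher. With the ribosomal RNA share as a covariate 1 matrix gene and no vessel marker was called, and with the lncRNA share none of either, and the matrix median was 0.82 and 0.57.

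Among ion channel genes more rose than fell, and most were low on the injured side at 1 week. Of 41 potassium channels tested, 13 rose (31.7%, against 11.3% of all genes) and 1 fell (2.44%, against 8%), with a median of 0.15. At 1 week 32 of the 41 were called lower on the injured side and 25 at 5 weeks, against 26.3% and 22.9% of all genes. The crossed pattern was seen in 4 of the 13, Kcnb2, Kcnq3, Kcnma1 and Kcnh7. Kcnq3, a subunit of the M-current that restrains firing, shifted by 1.33 ± 0.09 (adjusted p = 4.8e-09), with medians of 24.5 and 15.8 CPM on the opposite and injured side at 1 week and of 15.1 and 23.6 at 5 weeks. Kcna2, a channel next to the node of Ranvier, behaved differently: its medians were 770 and 365 CPM on the opposite and injured side at 1 week and 692 and 439 at 5 weeks, a shift of 0.44 ± 0.11 (adjusted p = 0.017).

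Of 35 sodium and calcium channel genes 10 rose (28.6%, against 11.3% of all genes) and 2 fell (5.71%, against 8%). The median exon length was 8127 bases in this list and 5416 in the potassium channel list, against 3285 over all genes. Among all genes of 6386 bases and more 27.8% had a higher shift, which is near the share of this list. Scn9a, the sodium channel Nav1.7 that sets the threshold of nociceptors, had 317, 362 and 382 CPM on the opposite and 217, 251 and 292 on the injured side at 1 week. At 5 weeks it had 283, 295 and 303 CPM on the opposite and 321, 360 and 385 on the injured side. The order of the sides turned between the weeks without overlap, and the shift was 0.77 ± 0.08 (adjusted p = 2.09e-06). Scn1a and Scn8a, channels of large myelinated neurons and nodes, rose by 0.38 and 0.33 and stayed below the opposite side, with side differences of -0.93 and -0.84 at 1 week and of -0.55 and -0.51 at 5 weeks. Cacnb1 and Scn3b, both accessory subunits, fell by 0.46 and 0.36.

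Receptors and subtype genes followed. In a list of 25 neuropeptide and receptor genes 6 rose (24%, against 11.3% of all genes) and none fell. Those that rose were Oprm1, the calcitonin gene-related peptide receptor component Calcrl (0.79) and the galanin receptor Galr1 (0.76). The others were the neuropeptide Y receptors Npy2r (0.54) and Npy1r (0.49) and the nociceptin receptor Oprl1 (0.23). All 6 encode receptors or receptor components. The peptide genes Gal, Adcyap1 and Nts, described above with the nerve injury genes, are outside this list, and each had a called decrease. Ntrk3, the neurotrophin-3 receptor of proprioceptors, had medians of 320 and 175 CPM on the opposite and injured side at 1 week and of 241 and 251 at 5 weeks, a shift of 1.03 ± 0.07 (adjusted p = 6.19e-09). The calcium-binding proteins Pvalb and Calb2 fell by 0.42 and 0.28. Of 35 subtype markers 5 rose (14.3%) and 3 fell (8.57%), shares near those of all genes.

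Axon guidance genes often rose: 24 of 44 rose (54.5%, against 11.3% of all genes) and 3 fell (6.82%, against 8%), with a median of 0.29. The list's median side difference was below 0 in all 7 animals at 1 week (-0.32 to -0.15) and above 0 in all 6 at 5 weeks (0.12 to 0.21). Sema3d, a secreted semaphorin, shifted by 1.71 ± 0.16, the semaphorin co-receptors Nrp1 by 0.60 and Plxna2 by 0.88, and the ephrin receptor Epha5 by 0.73. Sema6a, by contrast, was strongly raised by injury (2.93 at 1 week, 2.27 at 5 weeks) and fell by 0.66. The median exon length of this list was 7137 bases, against 3285 over all genes. Of 32 synaptic vesicle and release genes 10 rose (31.2%, against 11.3% of all genes) and 3 fell (9.38%, against 8%). Among the former was the active zone protein Pclo (1.03 ± 0.09) and among the latter the injury-raised synaptotagmin Syt4 (-0.42 ± 0.07), whose sign turned under the lncRNA covariate (0.061, not called).

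**Figure D5:**
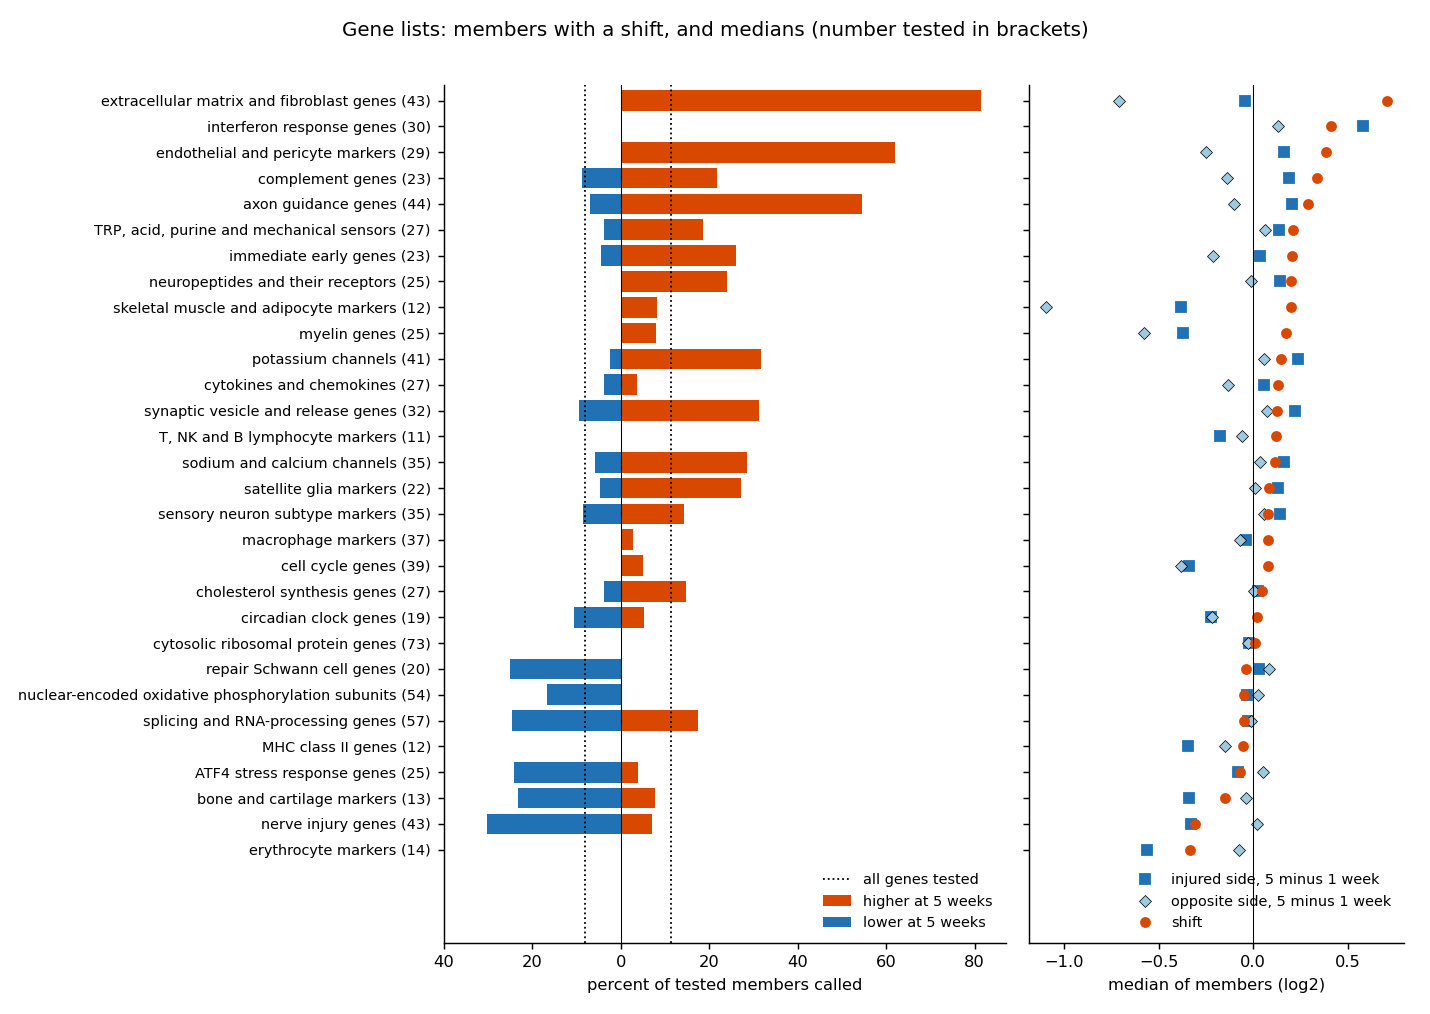
Left, percent of the tested members of each gene list with a called shift, higher to the right and lower to the left, with dotted lines for all genes tested. Right, list medians of the shift and of the week difference on each side (log2). The extracellular matrix, endothelial and axon guidance lists hold the largest shares called higher, and the nerve injury list the largest share called lower.

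RNA-processing and metabolic genes moved by small amounts. Of 57 splicing and RNA-processing genes 14 fell (24.6%, against 8% of all genes) and 10 rose (17.5%, against 11.3%). The list was chosen with earlier results of these data known, which had named its member Ro60, so these shares are no independent test. Those that fell include Snrnp70, the splicing factor Srsf2 (-0.26 ± 0.04) and the RNA-binding protein Cirbp (-0.26), and those that rose include Ro60, the speckle protein Son (0.41 ± 0.04) and the kinase Prpf4b (0.42 ± 0.05). Of 54 nuclear-encoded subunits of oxidative phosphorylation 9 fell (16.7%, against 8% of all genes) and none rose. Each of the 9 fell by 0.15 to 0.23, for example the cytochrome oxidase subunits Cox7b (-0.23 ± 0.05) and Cox7c (-0.23 ± 0.05). With upper-quartile scaling 16 fell, against 2014 of all 17866 genes. With the exon length trend removed 3 did, against 1495 of all 17866 genes, so the share of the list was then not above that of all genes. Of 73 cytosolic ribosomal protein genes none had a called shift by edgeR, DESeq2 or limma-voom, and 2 had an unadjusted p under 0.05.

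Among immediate early genes Fos had medians of 7.58 and 9.02 CPM on the opposite and injured side at 1 week and of 3.89 and 9.38 at 5 weeks, a shift of 0.84 ± 0.14 (adjusted p = 1.95e-04), with its week difference on the opposite side. Egr1 (0.73 ± 0.14) and the phosphatase Dusp1 (0.52 ± 0.10) also rose, and Socs3, which damps interleukin-6 signalling, fell by 0.58. Dusp1 and Socs3 lost their calls without the animal as a block (adjusted p = 0.051 and 0.082). In all, 6 of 23 rose (26.1%, against 11.3% of all genes) and 1 fell (4.35%, against 8%). Without the animal as a block 2 of the 23 rose, and 1512 of the 17866 genes tested.

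Few immune genes had a called shift. Of 37 macrophage markers 32 were called above the opposite side at 1 week and 32 at 5 weeks. Of all genes 24.9% were called above it at 1 week and 25.1% at 5 weeks. A called shift was found for 1 of the macrophage markers (2.7%, against 19.3% of all genes), and their median shift was 0.08. Per animal, their median side difference ran from 0.67 to 1.58 at 1 week and from 0.19 to 2.11 at 5 weeks. All 12 genes of MHC class II, which present antigen to helper T cells, were called above the opposite side at both weeks, and none had a called shift by edgeR, DESeq2 or limma-voom or an unadjusted p under 0.05. The 30 interferon response genes had a median shift of 0.41 and were above 0 in 29 of 30, yet none was called by edgeR, DESeq2 or limma-voom, and 0 had an unadjusted p under 0.05. Per animal, the median side difference of this list ran from -0.99 to 1.82 at 1 week and from -1.09 to 2.19 at 5 weeks. With so wide a spread between animals, the lack of calls does not show that a shift is absent. In the complement list of 23, 5 rose (21.7%, against 11.3% of all genes) and 2 fell (8.7%, against 8%). The latter were the alternative pathway activator Cfp (-0.81 ± 0.15) and the complement inhibitor Cd59 (-0.36 ± 0.06; 0.022 and not called under the lncRNA covariate). Leaving out 1 animal lowered the number that rose to between 2 and 3 in 10 of the 13 cases, which is near the share of all genes.

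The male arm gave the same contrast in another table. In a joint fit of 50 libraries the shift differed between females and males for 2108 of 19100 genes tested (11%), 1257 higher (6.58%) and 851 lower (4.46%) in females. In this fit the male sides were paired by replicate number, and no animal code was checked for them. Without the pairs as blocks the count was 1130. The male shift itself was called for 434 (2.27%), 208 higher (1.09%) and 226 lower (1.18%). Of the 3446 genes called in females 171 were also called in males, 142 of them with the same sign, and for 1627 the difference between the sexes was called. These genes were chosen by the female shift, which is also a part of the difference between the sexes. A share above the 11% of all genes in the joint fit therefore follows in part from that choice. The crossed genes had male shifts near 0, for example -0.15 for Oprm1, -0.08 for Ro60 and 0.14 for Gucy1a2, and their female minus male differences were 3.91, 3.76 and 2.14 (adjusted p = 1.03e-11 for Oprm1 and Ro60 and 5.07e-13 for Gucy1a2).

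For several genes of the injured-side pattern the male shift had the same sign. Grem1 had a male shift of -1.54, Spata18 of -1.30 and Tph2 of -1.11, and their differences between the sexes were 0.22 (adjusted p = 0.62), -0.04 (adjusted p = 0.97) and -0.32 (adjusted p = 0.49). Nfil3 had a male shift of -0.01 and a difference of -1.0 (adjusted p = 0.0054). Its male median without TMM scaling was nevertheless lower at 5 weeks on both sides. It went from 12.7 to 7.63 CPM on the injured side and from 3.98 to 2.32 CPM on the opposite side. Of the 43 matrix genes 2 were called higher and 1 lower in males, with a median male shift of -0.16, and 29 had a called female minus male difference, each higher in females. Sex, table and any run that goes with the table cannot be told apart at these weeks.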

How the data were processed

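Gene-level estimated counts were deposited by the authors as a table for the females with the 24 h males and a table for the later males, and values with fractions were rounded, which changed a library total by at most 0.00131%. Per the submitters' processing notes, bcl2fastq 2.20.0.422, cutadapt 2.5, STAR 2.7.2b, featureCounts 1.6.4 and the build mRatBN7.2 were used. Per the labels' protocols, libraries were stranded and poly-A selected, and were read on NextSeq 500 (75 nt) or NextSeq 2000 (100 nt). Female totals were 18.4 to 25.5 M counts.

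Genes passing filterByExpr (count minimum 10) were scaled by TMM and fitted in edgeR 4.0.16 (R 4.3.3) by the quasi-likelihood test with the animal as a block, and p-values were adjusted over all 17866 genes by Benjamini-Hochberg. Same-numbered sides carried 1 animal code in 13 of 13 pairs, and their deviations correlated with a median of 0.334 at 1 week (lowest 0.0916) and 0.412 at 5 weeks (lowest 0.316). A gene is called at an adjusted p under 0.05. In simulated data on 17866 genes for the shift, 36% of genes changed 1.25-fold were found, 70% at 1.5-fold and 98% at 2-fold and 4-fold, with 2 false calls. The changed genes were drawn from those above a minimum mean level, so these shares do not hold for weaker genes. No library property crossed over week and side was simulated, so the false calls do not cover that case. DESeq2 1.42.0, limma 3.58.1, other scalings and filters, covariates and leaving out each animal were the alternatives. Library properties were tested with SciPy 1.17.1.

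The libraries and the 31 gene lists were chosen with earlier results of these data known, so the shares of the lists are descriptions and not independent tests. Named genes are 8 injury genes, 8 genes of earlier results, the 12 largest changes per direction (called, a mean log2 CPM from 1 upward, weeks not overlapping), the 6 smallest p per direction, 4 per list, and 4 per direction for females against males. Other named genes were chosen after their values were seen. Some list members are not reported here by name.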

Additional observations from a re-analysis of the deposited data

Results flagged for a closer look

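In groups of 4 to 10 libraries or animals, a highest or lowest value was looked for that stood apart by Dixon's 95% criterion. Of 98 groups of values 8 held one, and chance gives about 1 in 20. Galanin (Gal) had a log2 side difference of 4.56 in 5 week animal 6, against 3.81 for the next animal, and Tph2 of 3.01 in 1 week animal 5, next 2.47. Cdhr5 had 3.96 in 1 week animal 6 (next 2.94), Plcxd3 1.37 in 5 week animal 2 (next 0.97) and Spata18 -0.10 in 5 week animal 4 (next 0.57). Adra1a had -1.79 in 5 week animal 2 (next -2.26) and Mag 0.12 in 5 week animal 4 (next -0.31). The share of fractional counts was 22.3% in the opposite library of 5 week animal 1, next 21.5%.

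The side difference itself differed between the weeks for 3446 genes, and the shift differed between females and males for 2108. The female minus male difference was 2.14 for Gucy1a2, 1.76 for Phip, 1.64 for Dmxl1 and 1.5 for Unc80, and it was -1.08 for Pcgf1, -1.06 for Leng8, -0.77 for Snrnp70 and -0.60 for the choline kinase Chka.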

How the results depend on the processing

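The number of genes with a called shift was 3446 and lay between 2625 and 3650 under RLE scaling (3460), upper-quartile scaling (3650), no filter (2942), a stricter filter (3389), DESeq2 (2633), limma-voom (3458), a removed exon length trend (3048) and no replicate block (2625). Without the block the female minus male count was 1130 instead of 2108. Leaving out 1 animal gave 2883 to 3595 genes. With the ribosomal RNA share as a covariate the shift was called for 117 genes (95 higher, 22 lower), the 1 week side difference for 853 and the week difference on the injured side for 238. With the lncRNA share, chosen after seeing the data, the counts were 248 (201 higher, 47 lower) for the shift, 3206 for the side difference at 1 week and 5377 at 5 weeks. Under the latter, among the genes reported here, the shift changed sign for Arntl2 (from -0.38 to 0.34), Cd59 (-0.36 to 0.022), Fabp4 (2.46 to -1.45), Nfasc (0.19 to -0.030), Sox11 (-0.72 to 0.43) and Syt4 (-0.42 to 0.061). The cause was not tested. Both shares differ between the groups compared, so these covariates also take up part of the contrast.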
